A study of Mus musculus with 3 samples.

Results

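Processed pseudogenes are copies of messenger RNAs that were reverse-transcribed and inserted back into the genome, and their RNA was examined here in the chromatin fraction of mouse macrophages. Members were all genes with a transcript annotated as processed_pseudogene or transcribed_processed_pseudogene in the deposited transcript tables, which gave 10244 of 55536 annotated genes. Of these, 9943 were processed pseudogenes and 301 were transcribed processed pseudogenes, the annotation's term for copies with evidence of a transcript at the locus. All of them were present in the gene tables of all 3 libraries.

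The series holds 1 group of 3 libraries of ribosomal RNA-depleted total RNA, taken from chromatin of C57BL/6J bone marrow-derived macrophages. All cells had received 100 ng/ml of lipid A, the toll-like receptor 4 ligand of bacterial endotoxin, for 120 min, so every value below is from stimulated cells. Replicates 1, 2 and 3 were made from 1 µg, 250 ng and 500 ng of RNA, which cannot be told apart from replicate. The labels call them biological replicates with the same donor label, give no sex or age, and do not say that the cultures were separate, so the spread between them may be technical. Annotated genes took 19751051, 20372850 and 21984526 expected counts in replicates 1, 2 and 3, and 30368008, 35411969 and 38777468 estimated counts in a second set of tables made from the same reads. All 10 listed macrophage markers were at 1 TPM or more in every library, while no listed T cell, B cell, NK cell, neutrophil, erythroid or fibroblast marker was, with a summed level of at most 0.80 TPM for any of these lists.

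A processed pseudogene carries the exons of its source joined together, usually without introns and without the promoter of the source gene. Its own transcription therefore depends on where it landed, such as inside another gene or near an active promoter. Genes transcribed strongly in the germ line, above all ribosomal protein genes and Gapdh, have left the most copies. Chromatin RNA is rich in nascent, unspliced transcripts, so introns of active genes are covered by reads. Because a young copy is almost letter for letter its source messenger RNA, counting tools must share short reads out between the copy and its source.

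Sequences of some of the highest members are shown beside their best-aligned coding transcript. Gm5970, the highest by mean TPM in the expected-count tables, is not among them. Windows were limited to stretches of coding sequence aligned without a gap, so they can look closer than the whole alignment. For 2610024D14Rik, for example, identity to Atp5l over the whole alignment was 82.5%. For each member below, a 90-base window of the pseudogene is printed beside the same window of the coding transcript it aligned to best, both from the GENCODE M21 transcripts (GRCm38) and written 5′ to 3′. Capitals mark bases that differ between both. Where said, the window is centred on an exon-exon junction of the coding transcript, which falls after base 45 and which the pseudogene carries as uninterrupted genomic sequence. The first 4 are transcribed processed pseudogenes. 4931440P22Rik lies at chr3:65509075-65509164 on the minus strand and differs from the Rpl29 transcript at 7 of 90 bases in a window that begins at the start codon.
4931440P22Rik: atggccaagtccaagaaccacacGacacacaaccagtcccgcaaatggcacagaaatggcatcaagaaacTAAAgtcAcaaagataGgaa
Rpl29: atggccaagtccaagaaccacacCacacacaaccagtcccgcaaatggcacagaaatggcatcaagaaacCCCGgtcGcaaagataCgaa
3110001I22Rik, at chr16:13677756-13677845 on the plus strand, was the most diverged of those shown, with 21 differing bases around a junction of Pphln1.
3110001I22Rik: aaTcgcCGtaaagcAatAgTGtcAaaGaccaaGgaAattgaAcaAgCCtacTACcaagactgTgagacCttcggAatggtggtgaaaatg
Pphln1: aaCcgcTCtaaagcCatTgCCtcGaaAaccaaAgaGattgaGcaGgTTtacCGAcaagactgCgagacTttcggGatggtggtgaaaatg
Rps2-ps9, at chr17:27784502-27784591 on the plus strand, differs from Rps2 at 8 bases around a junction.
Rps2-ps9: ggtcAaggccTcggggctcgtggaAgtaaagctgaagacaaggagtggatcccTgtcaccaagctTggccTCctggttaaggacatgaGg
Rps2: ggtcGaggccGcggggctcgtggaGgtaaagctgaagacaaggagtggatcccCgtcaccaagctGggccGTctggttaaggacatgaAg
AC134468.1, at chr12:39948957-39949046 on the minus strand, has no differing base in a window over a junction of Usp9x, so its sequence stands for both.
AC134468.1: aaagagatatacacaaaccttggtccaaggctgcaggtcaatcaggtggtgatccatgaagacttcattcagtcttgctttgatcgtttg
The next 4 are processed pseudogenes. 2610024D14Rik, at chr11:21099682-21099771 on the plus strand, differs from Atp5l at 7 bases around a junction.
2610024D14Rik: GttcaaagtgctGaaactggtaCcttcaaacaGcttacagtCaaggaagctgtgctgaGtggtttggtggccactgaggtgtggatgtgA
Atp5l: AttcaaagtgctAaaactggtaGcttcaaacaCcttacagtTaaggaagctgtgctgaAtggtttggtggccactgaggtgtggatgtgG
Gm20612, at chr9:45261091-45261180 on the plus strand, differs from Rpl17 at 9 bases around a junction.
Gm20612: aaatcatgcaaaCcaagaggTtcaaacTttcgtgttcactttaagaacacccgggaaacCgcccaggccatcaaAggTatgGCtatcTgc
Rpl17: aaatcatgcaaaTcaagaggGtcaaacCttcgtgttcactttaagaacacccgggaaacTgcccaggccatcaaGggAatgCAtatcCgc
Gm18852, at chr7:105926513-105926602 on the minus strand, differs from Gvin1 at 6 bases, and its alignment crosses 0 junctions.
Gm18852: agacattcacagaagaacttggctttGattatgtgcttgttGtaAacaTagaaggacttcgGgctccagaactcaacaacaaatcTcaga
Gvin1: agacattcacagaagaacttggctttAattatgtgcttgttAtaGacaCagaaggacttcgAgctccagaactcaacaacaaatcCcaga
Gm9845, at chr3:39358565-39358654 on the minus strand, has no differing base in a window over a junction of Cflar, so its sequence stands for both.
Gm9845: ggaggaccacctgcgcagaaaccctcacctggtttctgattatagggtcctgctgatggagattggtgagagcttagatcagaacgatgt
Gm15500 is shown because its level set 1 library apart. It lies at chr7:114706046-114706135 on the minus strand and has no differing base over a junction of Rpl5.
Gm15500: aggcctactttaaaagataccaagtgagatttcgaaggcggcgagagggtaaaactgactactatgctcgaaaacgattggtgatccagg
Gm12896 is shown because, with its near-copy Gm12895, it held the highest estimated counts while both had 0 expected counts. It spans chr4:122122847-122123072 on the plus strand, and 224 of its 226 bases are an unbroken run of Gm12895. Capitals mark the bases outside that run.
Gm12896: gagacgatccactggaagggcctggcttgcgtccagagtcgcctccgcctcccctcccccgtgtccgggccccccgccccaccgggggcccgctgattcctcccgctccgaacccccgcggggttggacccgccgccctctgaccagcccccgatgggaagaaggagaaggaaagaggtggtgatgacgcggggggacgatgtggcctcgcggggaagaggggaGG

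Most processed pseudogenes carried no counts. In the expected-count tables, 7716 of 9943 processed pseudogenes (77.6%) had a count of 0 in all 3 libraries, against 57.7% of all annotated genes, and a count of 0 allows at most 0.1519 CPM in replicate 1, 0.1473 in replicate 2 and 0.1365 in replicate 3, where CPM is the count relative to the library's annotated total and only counting error is covered. Of the transcribed class, 150 of 301 (49.8%) were at 0 in every library. The estimated-count tables had fewer silent members, 6599 processed (66.4%) and 95 transcribed (31.6%), beside 39.6% of all genes. Both sets of tables gave 0 in every library for 6339 processed and 89 transcribed members.

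Few members reached 1 TPM, the level called detected here, where TPM is abundance scaled by length and to a fixed library total. By expected counts, 399 processed pseudogenes (4.01%) and 29 transcribed processed pseudogenes (9.63%) were detected in every library, against 18.4% of all annotated genes. In the estimated-count tables the counts were 805 (8.10%) and 63 (20.9%), against 29.0% of all genes. Both sets of tables detected 373 processed and 24 transcribed members. Per library, 4.85%, 7.04% and 7.54% of processed pseudogenes were detected in replicates 1, 2 and 3, and 11.0%, 15.6% and 15.0% of the transcribed class. The transcribed class was thus 7.37 ± 1.23 percentage points higher (SD, n = 3; higher in 3 of 3 libraries; exact two-sided sign-flip test p = 0.25, the smallest p that 3 libraries allow).

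Together the processed pseudogenes held 0.202% ± 0.041 (SD, n = 3) of expected counts and the transcribed class 0.0284% ± 0.0035. The estimated-count tables gave 1.52% ± 0.22 and 0.0768% ± 0.010. Summed over processed pseudogenes, the level in replicates 1, 2 and 3 was 2953, 4695 and 5835 TPM in the expected-count tables and 38936, 106796 and 55010 TPM in the estimated-count tables. Of the latter sums, Gm12895 and Gm12896, a near-identical pair with 0 expected counts, held the larger part. Without these 2 genes 12821, 11912 and 21027 TPM remained, so replicate 2, the highest library with them, was the lowest without them. In every library the sum of the estimated-count tables was the higher one, with or without the pair.

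**Figure D1:**
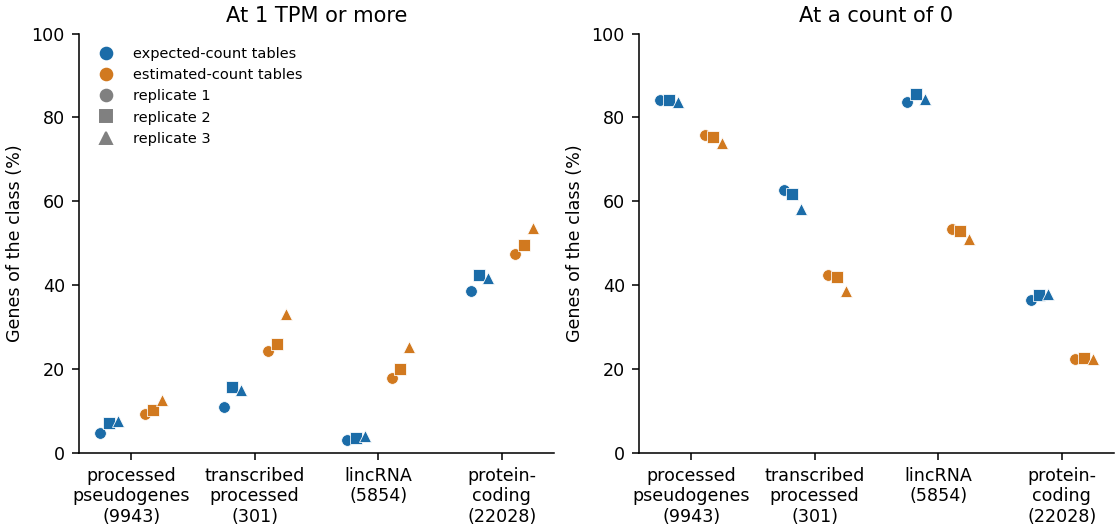
Percent of the genes of each class at 1 TPM or more (left) and at a count of 0 (right), 1 point per library, for the expected-count tables (blue) and the estimated-count tables (orange), with lincRNA and protein-coding genes beside both pseudogene classes. The transcribed class lay above the processed class in detection and below it in zero counts in each library and both sets of tables.

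Gene totals of the transcribed class include other transcripts of the same locus. Of its 301 genes, 237 carry at least 1 further transcript and 64 have the pseudogene transcript alone. Only 29.7%, 23.7% and 25.5% of the class's expected counts in replicates 1, 2 and 3 were assigned to the pseudogene transcripts themselves, and 20.7%, 17.3% and 18.3% of its estimated counts. Counted by pseudogene transcript, 18 members rather than 29 were at 1 TPM or more in every library, and 188 rather than 150 were at 0. In the estimated-count tables the drop was larger, from 63 detected to 20, and 189 rather than 95 were at 0. By expected counts the lead of the transcribed class over the processed class was then 1.72 ± 1.12 percentage points (exact two-sided sign-flip test p = 0.25, n = 3), a comparison added after seeing the data. By estimated counts the order was reversed, with 20 of 301 transcribed members against 805 of 9943 processed pseudogenes (8.10%) detected in every library. Among the 12 highest genes of the class with a mean of at least 10 expected counts, the share of expected counts on the pseudogene transcript was 0.0698% in 4931440P22Rik, 5.28% in D630033A02Rik, 6.24% in Gm15666, 19.6% in Gm15500, 23.3% in 3110001I22Rik and 45.9% in Gm3086. It was 64.8% in AC132481.2, 80.8% in Gm17229, 95.7% in Rps2-ps9 and 100% in AC134468.1, Gm7666 and Apc-ps1. In the estimated-count tables it was lower in Rps2-ps9 (65.2%) and 3110001I22Rik (4.23%), 0 in 4931440P22Rik, Gm15666 and Gm3086, and 9.05e-09% in Gm15500. Levels of this class given below are of the whole gene. For the first 6 of these genes most expected counts fell on other transcripts, so the levels are not those of the copy alone. TPM is scaled by length, so these shares of counts are not shares of TPM.

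Position in the genome separated the members by level. Members lying wholly within another gene on its own strand numbered 990, and those within a gene on the opposite strand 1646. Outside any gene lay 7560, and 48 overlapped a gene in part. For position, here, below and in the figures, only protein-coding and lincRNA genes counted as genes. Of the 7560 members outside them, 129 shared an exon with another annotated gene. In the expected-count tables, 146 (14.7%) of the same-strand members, 232 (14.1%) of the opposite-strand members, 50 (0.661%) of those outside and 0 of those overlapping in part were detected in every library. The estimated-count tables gave 20.4%, 21.1% and 4.21% for the first 3 positions. Taken apart, processed pseudogenes were detected at 133 of 930 (14.3%), 225 of 1597 (14.1%) and 41 of 7370 (0.556%) in these positions by expected counts. The transcribed class was detected at 13 of 60 (21.7%), 7 of 49 (14.3%) and 9 of 190 (4.74%). In the estimated-count tables these shares were 20.2%, 20.6% and 3.91% for processed pseudogenes and 23.3%, 36.7% and 15.8% for the transcribed class. Per library, same-strand members led those outside by 15.1, 19.9 and 22.2 percentage points (19.1 ± 3.6, SD, n = 3; higher in 3 of 3 libraries; exact two-sided sign-flip test p = 0.25, the smallest possible). The opposite-strand lead, added after seeing the data, was 19.8 ± 4.3 points. The strand setting of the counting is not given in the sources used here, so reads of a gene and of a copy on its other strand cannot be told apart.

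Detection followed the level of the surrounding gene. Among 2373 members that lay in a gene without sharing an exon with another gene, 69 of them in the transcribed class, the share detected on the same strand was 0.717% where the surrounding gene had a mean under 1 TPM (558 members). It was 9.60% at 1 to 5 TPM, 39.5% at 5 to 20 TPM, 61.4% at 20 to 50 TPM and 73.8% at 50 TPM or more (42 members). On the opposite strand the same bins ran from 0.601% through 5.91%, 35.3% and 59.6% to 62.5%. Among the 133 detected same-strand members the median ratio of the member's TPM to that of the surrounding gene was -2.14 on the log2 scale, with quartiles of -2.92 and -1.04, and 13 members were above the surrounding gene. Opposite-strand members gave a median of -2.23 over 216 members, 18 of them above the surrounding gene. The bins were chosen after seeing the data, and what part unspliced RNA of the surrounding genes had in these counts was not tested.

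**Figure D2:**
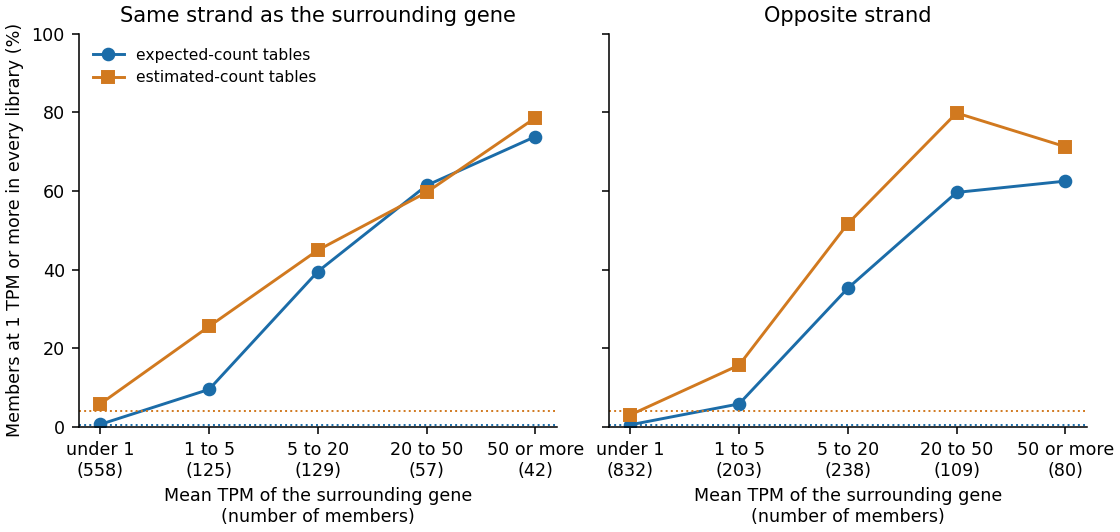
Percent of members at 1 TPM or more in every library against the mean TPM of the gene they lie in, for members on its strand (left) and on the other strand (right), with the number of members in each bin. Dotted lines give the share for members outside any gene, 0.661% in the expected-count tables (blue) and 4.21% in the estimated-count tables (orange), and detection rose from near these lines to between 62.5% and 78.6% in the top bin.

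Of the 12 processed pseudogenes with the highest mean TPM among those with at least 10 expected counts in the mean, 11 lay inside another gene on either strand. Gm5970, on chromosome 18 within Gm4951 and 88.2% identical to Iigp1, an interferon-inducible GTPase gene, had 73.3, 112 and 170 TPM in replicates 1, 2 and 3 and was the only member with a mean over 100 TPM in the expected-count tables, from which the levels here come. Its mean in the estimated-count tables was 97.0 TPM. Iigp1 had 77.3, 148 and 260 TPM in the same libraries. Gm4951, the surrounding gene, was lower than Gm5970 in each of them, at 4.97, 10.98 and 22.4 TPM. Gm12188 lies on the opposite strand of Ifi47, another interferon-inducible GTPase gene, shares exon sequence with it and had 54.0, 83.6 and 143 TPM. It aligned best to Eif4ebp1, the translational repressor 4E-BP1, which stood at 0.773 ± 0.258 TPM by expected counts and 13.5 ± 4.4 TPM by estimated counts, while Ifi47 had 67.7 ± 25.6 TPM. All of these levels were lowest in replicate 1 and highest in replicate 3, except that of Eif4ebp1.

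2610024D14Rik, the Atp5l copy shown above, lies in Peli1, an E3 ubiquitin ligase gene of toll-like receptor signalling, and had 60.4, 86.9 and 130 TPM beside 89.1, 114 and 164 TPM for Peli1. Atp5l, a subunit of mitochondrial ATP synthase, had 6.44, 28.1 and 8.99 TPM, so the pseudogene was the higher one of both in every library. Gm47727 lies in Aoah, whose enzyme deacylates lipopolysaccharide, at 44.3, 78.7 and 129 TPM. Gm20612, the Rpl17 copy, lies on the opposite strand of Il10ra, the interleukin 10 receptor gene, at 51.7, 66.6 and 118 TPM. Gm6341, 98.5% identical to Rpl27, lies opposite Fchsd2 at 37.0, 55.8 and 93.2 TPM, and Gm47324 lies in Fchsd2 on its strand at 35.1, 43.2 and 64.7 TPM. Fchsd2 itself had 629 ± 149 TPM. For each of these members replicate 3 was the highest library and replicate 1 the lowest.

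Hmgb1-ps5, 98.2% identical to Hmgb1, a chromatin protein also released as an alarmin, lies in Ctss, the cathepsin S gene, at 35.98, 40.5 and 68.7 TPM. Hmgb1 was lower, at 2.77, 14.4 and 4.18 TPM. Ctss had 63.2, 205 and 59.3 TPM and was highest in replicate 2, in which the pseudogene was not. Gm18852, a Gvin1-like copy inside Gm4070, carried the most expected counts of any member, 5138, 5741 and 8080, at 64.5, 81.7 and 110 TPM. It shares exon sequence with Gm4070 on the same strand, so the split of reads between both is uncertain. Gm21370 and Gm31544, both nearest to Ctdsp1, had 53.5 ± 17.8 and 47.9 ± 18.3 TPM and share exon sequence with genes on the other strand.

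Gm9845 was the one of the 12 highest processed pseudogenes outside any gene. It matches Cflar, which encodes the caspase 8 inhibitor c-FLIP, at 100% over its 598 bases, and had 96.8, 49.9 and 42.3 TPM. Cflar had 178, 247 and 306 TPM, the opposite order of libraries. No base distinguishes a Gm9845 read from a Cflar read where both align, so the split between both is uncertain.

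The transcribed class was led by 4931440P22Rik, an Rpl29 copy outside any gene, at 37.4, 31.4 and 34.6 TPM. Rpl29 had 4.31, 35.6 and 5.88 TPM, so both differed by less in replicate 2 than in the others. D630033A02Rik, with no coding alignment, had 22.5, 21.01 and 26.3 TPM and shares exon sequence with another gene on its strand. 3110001I22Rik lies in Bfar, an apoptosis regulator gene, and had 13.9, 18.99 and 30.5 TPM against 117 ± 43 TPM for Bfar. AC134468.1, the copy of part of Usp9x, a deubiquitinase gene, had 15.4, 19.9 and 17.3 TPM against 69.5 ± 1.6 TPM for Usp9x. Rps2-ps9 had 9.82, 16.5 and 23.5 TPM. Gm7666, 99.9% identical to Phb, the prohibitin gene, lies in the adaptor gene Fyb. It had 14.3, 13.9 and 14.1 TPM by expected counts, the narrowest spread in TPM of these 12, but 13.8, 8.70 and 9.66 TPM by estimated counts. It shares exon sequence with another gene on its strand.

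AC132481.2, Gm3086, Gm15666, Gm17229 and Apc-ps1 had means between 6.62 and 9.11 TPM, and each lies inside another gene. Gm15500, the Rpl5 copy, had 1.94, 21.3 and 1.52 TPM and stood apart in replicate 2 only. In the expected-count tables, the lowest of the 12 highest processed pseudogenes, at 47.7 TPM, was above the highest member of the transcribed class, at 34.5 TPM. By estimated counts that member, 4931440P22Rik, had 48.1 TPM. This was above Gm31544 (44.5), Gm47324 (43.1) and Hmgb1-ps5 (32.4) and below the others of the same 12. The classes also differ in size, with 9943 and 301 genes.

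**Figure D3:**
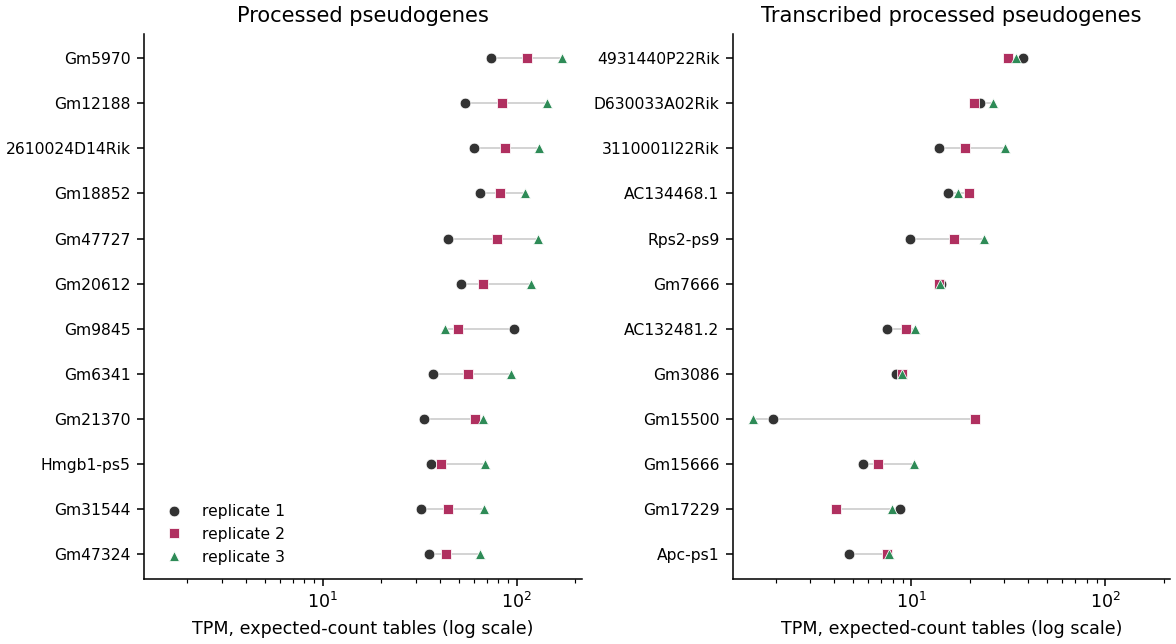
TPM in each library for the 12 highest processed pseudogenes (left) and the 12 highest transcribed processed pseudogenes (right), each with a mean of at least 10 expected counts, on a log scale. Most processed members ran from replicate 1 up to replicate 3, Gm9845 ran the other way, and Gm15500 was at 21.3 TPM in replicate 2 but under 2 TPM in the others.

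By source, the largest family was that of cytosolic ribosomal proteins, with 2344 members from 87 genes. Of these, 143 (6.10%) were detected in every library and 1713 (73.1%) were silent in the expected-count tables, and 219 (9.34%) were detected in the estimated-count tables. Beside this, 4.18% of all members were detected in the expected-count tables. Of the 143 detected, 135 lay inside another gene. Glycolysis genes had 338 copies, 11 of them detected, led by the Gapdh copies Gm7985 in Daam1 (8.61, 8.42 and 11.4 TPM) and Gm17068 in Gnaq (5.58, 8.49 and 9.74 TPM). The gene with the most copies was Gapdh, with 230, of which 8 were detected and 180 were silent. Rpl7a followed with 174 copies, 16 of them detected.

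High-mobility-group and histone genes had 369 copies, 22 of them detected and all 22 inside another gene. Beside Hmgb1-ps5, the highest was Gm11805, an Hmgb3 copy opposite Lyn, a Src-family kinase gene, at 37.7, 37.6 and 64.4 TPM. Translation factors had 176 copies, of which 10 were detected. Among them Gm6548, an Eef1a1 copy, had 20.4, 22.7 and 22.6 TPM. It lies outside any gene, 608 bases after the end of Eif2ak2, which encodes the double-stranded RNA kinase PKR. Oxidative phosphorylation genes had 244 copies and 14 detected. Gm11874, a short Atp5l-like member, lies 1845 bases after the end of Ripk2, a kinase gene of NOD signalling. It had 0, 122 and 137 TPM from only 0, 3 and 4 expected counts, so that level rests on too few counts to be read.

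The hnRNP and RNA-binding family had 257 copies and 15 detected, with Gm12229 (Hnrnpa3) at 11.3 ± 2.7 TPM and Gm18955 (Hnrnpa2b1) at 10.9 ± 5.3 TPM. Cytoskeleton and cyclophilin genes had 216 copies and 6 detected, led by the Ppia copies E030024N20Rik (15.2 ± 5.9 TPM) and Gm6044 (11.5 ± 5.2 TPM). Chaperone, ubiquitin and proteasome genes had 280 copies and 12 detected, among them Gm16301, a Ube2v1 copy in Setdb2, at 3.50, 8.39 and 19.5 TPM. The highest of that family by TPM was Gm8325 at 25.5, 25.6 and 24.3 TPM, from only 11.1, 6.03 and 7.86 expected counts, 4.88% of them on the pseudogene transcript. Its deposited interval in replicate 2 ran from 3.44 to 54.3 TPM and its mean in the estimated-count tables was 3.48 TPM, so that level too rests on few counts. All of these families had between 2.78% and 6.10% of copies detected, on either side of the share over all members.

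Interferon-response genes on the list used had 16 copies, from 7 source genes, with 1 detected (6.25%, against 4.18% of all members). It was AC121299.1, an Ifitm3-like copy opposite Ankrd12, at 6.51, 9.06 and 18.7 TPM. Iigp1 and Gvin1 were not on that list, so Gm5970 and Gm18852, both described above, are not counted in it. An Isg15 copy, AC151275.1, was at 0.317 ± 0.229 TPM while Isg15 had 67.4 ± 18.5 TPM. The NF-kB and cytokine list had 17 copies from 6 source genes, also with 1 detected (5.88%). It was Fth-ps2, a ferritin heavy chain copy in Braf, at 2.09, 4.39 and 3.36 TPM, while Fth1 had 179, 1164 and 197 TPM. That list also held the ferritin genes Fth1 and Ftl1, so the detected member is not a copy of an NF-kB subunit or cytokine gene.

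Just above the detection level in the mean lay Gm14984, Rps19-ps4 and 9530050K03Rik (each 1.00 TPM) and, in the transcribed class, Gm12504, Gm18856 and Gm1821 (1.03, 1.03 and 1.04 TPM). Just below it lay Gm11478, Gm8899 and Mdk-ps1 (0.997, 0.997 and 0.990 TPM) and Ywhaq-ps3, Gm15760 and Gm9531 (0.920, 0.913 and 0.900 TPM). These values came from 6 expected counts for Mdk-ps1 over the 3 libraries to 180 for Gm15760.

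The sets of tables disagreed about many members. The ratio of estimated to expected counts, each as CPM, was tested within libraries with limma (pseudocount 0.1, called at an adjusted p below 0.05 and at least 1 on the log2 scale). Over 21593 genes tested, 39.7% were called higher in the estimated-count tables and 0.324% lower, and the median ratio was 0.42 on the log2 scale. Among processed pseudogenes 983 were tested, 448 (45.6%) were called higher and 19 (1.93%) lower, with a median of 0.88. Among transcribed processed pseudogenes 108 were tested, 65 (60.2%) were called higher and 1 (0.926%) lower, with a median of 1.90. Members inside another gene had 185 of 645 higher and a median of 0.37, close to that of all genes. Members outside had 327 of 442 higher and a median of 3.68.

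The largest ratios belonged to members at or near 0 in the expected-count tables. Gm12895 and Gm12896 are the near-identical pair of which Gm12896 is printed above. Each had 28070, 131966 and 40128 estimated counts in replicates 1, 2 and 3 and 0 expected counts. That is at least 6086-fold, 25307-fold and 7583-fold higher in CPM against a floor of 3 expected counts per library (limma adjusted p = 0.0008 for each member). Together they held 25.1% of the estimated counts of all processed pseudogenes, and in replicate 2 each stood at 47442 TPM, against 13057 and 16992 TPM in the others. Neither aligned to another annotated coding or noncoding transcript at the settings used. Gm19220 had 10414, 18708 and 31616 estimated counts and 0 expected counts, at least 2258-fold higher in the library with the smallest ratio. Gm47951 had 3339, 3717 and 5257 against 0, at least 713-fold.

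Several other high members of the estimated-count tables had similar copies and close matches among noncoding transcripts. The best noncoding match was a transcript of Gm47164 for Gm48493 (99.8% identical over 3841 bases) and Gm48836 (100% over 281 bases). For Gm48415 it was a Gm26905 transcript (99.7% over 1723 bases), and for Gm48269 a Gm43294 transcript (97.9% over 933 bases). How reads were shared with these transcripts was not tested. Gm48493, a 3841-base member on chromosome 13, had 49332, 47341 and 66663 estimated counts and 144, 139 and 166 expected counts, and 32 other members matched it at 90% identity or more over at least 80% of its length. Gm48415, with 38 such copies, had 29697, 23280 and 27388 estimated counts against 14.3, 26.7 and 31.4 expected counts. Its ratio was 9.31 ± 0.36 on the log2 scale (SE; limma adjusted p = 0.0009). Gm48269 and Gm48836 behaved alike, at 355.8 ± 68.5 and 671 ± 365 TPM in the estimated-count tables and at 0.630 ± 0.310 and 1.11 ± 1.505 TPM in the expected-count tables. Gm47803, with 0 similar members, stood at 327 ± 96 TPM in the estimated-count tables and had 0 expected counts. The 8 highest members of the estimated-count tables were picked after their values were seen.

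By number of similar members, a grouping also chosen after seeing the data, the 513 members with 20 to 49 similar members held 39.98% of the estimated counts of all members and 10.6% of their expected counts. Their median ratio was 3.69 on the log2 scale over 98 tested. The 6444 members with no similar member held 24.6% and 68.8%, with a median of 1.11 over 691. The 352 members with 50 or more, most often Gapdh copies, had a median of -0.15 over 44. The 47 members that aligned best to Vmn2r79, a vomeronasal receptor gene at 0.00333 ± 0.00577 TPM by expected counts and 4.36 ± 1.19 TPM by estimated counts, had 191366 estimated counts per library in the mean and 1803 expected counts. Their match to that gene is named only as an alignment, and whether that gene is their source was not tested.

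**Figure D4:**
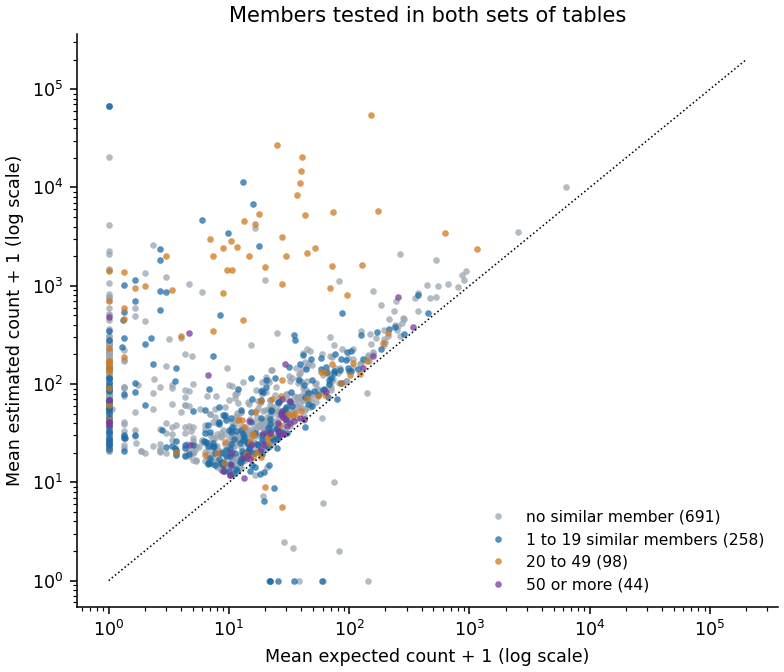
Mean expected count against mean estimated count over 3 libraries (each plus 1, log scales) for the 1091 members tested, coloured by the number of similar members, with a dotted line at equality. Of 98 members with 20 to 49 similar members (orange), 56 were called higher in the estimated-count tables and the others lie nearer the line, and of 44 with 50 or more (purple), 8 were called higher.

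Members lower in the estimated-count tables were mostly near-perfect copies. Of the 20 called lower (10 when replicate 3 was left out), 15 were at least 98% but under 100% identical to their best-aligned coding gene, 3 were at 100% and 2 were between 95% and 98%. None of the 602 tested members below 95% identity was among them. Of 117 tested members at 98% to below 100% identity, 24 were called higher and 15 lower. At 100% identity 13 of 44 were called higher and 3 lower, so near-perfect copies were not mainly lower. Gm7353, 99.9% identical to Zc3h3 over its 2866 bases, had 126, 169 and 136 expected counts and 0 estimated counts, at least 64.6-fold lower in the library with the smallest ratio (limma adjusted p = 0.0005). The expected-count files also give a posterior spread for each gene, in effect the uncertainty of sharing out reads. Among 567 members with a mean of at least 10 counts, its median was 0% of the mean in each group under 95% identical, 0.400% at 95% to 98%, 13.6% at 98% to below 100%, and 33.8% at 100%.

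Of 214 members at 0 expected counts but at 1 TPM or more in every library of the estimated-count tables, 200 were processed and 14 transcribed. They lay outside any gene in 77.1% of cases, and 32.7% had no coding alignment over at least 50% of their length, while over all members these shares were 73.8% and 13.6%. Of the 397 members detected in both sets of tables, 10.6% lay outside any gene and 12.6% had no such alignment. Of the 214, 2.80% were at least 98% identical to a coding gene, against 10.1% of all members. Their median level was 4.30 TPM in the estimated-count tables.

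A chi-square test of rounded expected counts against library size, which sets the spread between libraries against counting noise alone and covers neither differences in library preparation nor the uncertainty of sharing out reads, called 9661 of 14174 genes (68.2%). Among members it called 229 of 514 processed pseudogenes tested (44.6%) and 32 of 53 transcribed processed pseudogenes (60.4%). Over both classes 261 were called, and 122 when replicate 3 was left out. Both shares were below that of all genes, so the calls set neither class apart. By position and identity, 42.1% of 432 tested members inside another gene were called. Outside any gene, 78.3% of 60 tested at 98% identity or more were called, above the share of all genes. At lower identity outside, 39.7% of 63 were called. The following describes only which library was highest. Among called members the highest library differed with position and identity. Of 182 called members inside another gene, 140 (76.9%) were highest in replicate 3. Of 47 called members outside any gene that were at least 98% identical to a coding gene, 34 (72.3%) were highest in replicate 2, and their median scaled counts in replicates 1, 2 and 3 were 0.411, 2.00 and 0.538 times the member's mean. Of 25 called members outside any gene at lower identity, 2 were highest in replicate 2. Over all genes called, 32.5% were highest in replicate 2 and 35.3% in replicate 3.

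The coding genes matched by those 47 near-perfect copies were highest in replicate 2 in 32 cases, and in 34 cases copy and coding gene were highest in the same library. For members inside another gene the surrounding gene was highest in the same library in 74 of 174 cases. What part reads from the coding messenger RNA had in the counts of near-perfect copies was not tested.

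Of called members with a mean of at least 50 counts, the 4 with the greatest relative spread were all near-perfect copies outside any gene. That spread is the variance of scaled counts less their mean, divided by the squared mean. Gm15500 (100% identical to Rpl5) had 31.2, 336 and 21.7 expected counts for the whole gene, of which 19.6% fell on the Rpl5 copy and the rest on another transcript of the locus, and Rpl5 had 23.9, 38.6 and 42.6 TPM. Gm12715, a 99.6% identical copy of the gamma actin gene Actg1, had 7.03, 147 and 19.9 expected counts, while Actg1 had 114, 310 and 116 TPM. Gm12715 shares exon sequence with another annotated gene on its strand, and it had 0 estimated counts in every library. Eif4a-ps4, a 99.9% identical copy of the RNA helicase gene Eif4a1, had 16.6, 124 and 47.4 expected counts against 92.5, 127 and 104 TPM for Eif4a1. Gm5537, a 100% identical copy of the phosphoglycerate kinase gene Pgk1, had 37.2, 149 and 33.0 expected counts against 5.56, 17.5 and 5.87 TPM for Pgk1. In all 4, replicate 2 was the highest library and did not overlap the other values. The estimated counts of Gm5537 were 110, 168 and 124, a narrower range.

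**Figure D5:**
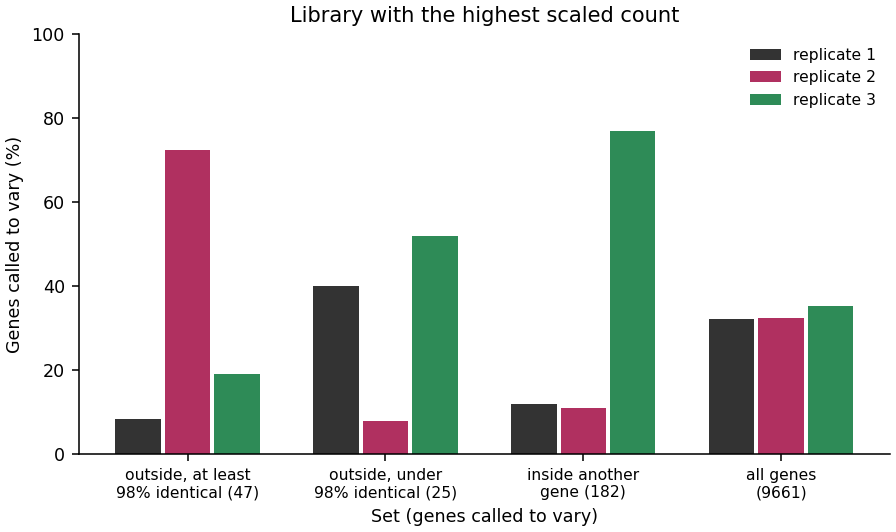
Percent of members called to vary that had their highest scaled count in replicate 1, 2 or 3, for members outside any gene at 98% identity or more and below, for members inside another gene, and for all genes called. Replicate 2 led among near-perfect copies outside genes (72.3%) and replicate 3 among members inside genes (76.9%), while all genes called were highest in replicate 1, 2 or 3 in 32.3%, 32.5% and 35.3% of cases.

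For members with a mean of at least 10 expected counts, levels in 1 library ranked like those in another with a Spearman correlation of 0.79 to 0.87 across 567 members. Between both sets of tables within 1 library it was 0.64 to 0.72 over the same members. These are descriptions across genes, which are not independent and share each library's depth.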

How the data were processed

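Per the labels, ribosomal RNA-depleted total RNA of the chromatin fraction was sequenced from 1 group of 3 libraries. For each library the authors deposited gene and transcript tables of expected counts (reads shared out among features, so not always whole) and TPM. The same files hold posterior means, standard deviations and interval bounds, treated here as scores as deposited by the authors. A transcript table of estimated counts and TPM was deposited besides. A deposited note names transcriptome alignments to mm10 with GENCODE M21 for the expected counts. Which strand setting, tools and versions the counting had is not given in the sources used here. Depths and the floor of 3 counts cover counting error alone, as 2 reads may stem from 1 molecule.

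Estimated counts were summed per gene, which matched 55450 genes. Positions came from GENCODE M21 (GRCm38). Pseudogene transcripts were aligned to protein-coding transcripts with BLAST+ 2.17.0 (word size 16, e-value 1e-10, plus strand), leaving out genes at the member's own locus. Of 10244 members, 9411 aligned, 8847 over at least 50% of their length. The ratio between tables was tested with limma 3.58.1 over all genes whose count averaged at least 10 (log2 of CPM + 0.1, Benjamini-Hochberg). For variation among the 3 libraries, rounded expected counts entered a chi-square test with TMM factors from edgeR 4.0.16 (mean of at least 10, Benjamini-Hochberg). On simulated data for the first test, recovery was 70% at a log2 shift of 2 and 88% at a shift of 4, with 2 false calls in 21593 genes. For the second it was 51% at a 1.5-fold and 96% at a 3-fold change, with 8 in 14174.

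The text names the 12 highest members of each class by mean TPM (mean expected count of at least 10), up to 5 called members of each direction with the largest ratio between tables and the 4 most variable (mean count of at least 50), the 2 highest per source family, and the 3 on each side of 1 TPM per class. The members, lists and tests were chosen with earlier results of these data known.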

Additional observations from a re-analysis of the deposited data

How the results depend on the processing

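Both contrasts in detection kept their direction under every alternative run. These were thresholds of 0.1 and 5 TPM, 10 counts, the estimated-count tables, the interval bound, each replicate left out, and added subsets of members. Not among these runs was the class contrast by pseudogene transcript in the estimated-count tables, where the transcribed class had the lower share detected. The interval bound asked for a lower bound of TPM above 0. Members with 0 counts in every library, such as Gm12895, also had such bounds, so this setting cannot separate detected from silent members. It gave 1.05 percentage points for the class contrast and 0.538 for the position contrast. In the other runs the class contrast was between 1.72 and 17.6 points and the position contrast between 6.74 and 27.2. Counts of calls moved more. Members higher in the estimated-count tables numbered 513, but 220 with a mean of at least 50 counts (fewer genes tested) and 341 with a pseudocount of 1, and 402 to 514 with a replicate left out. Members lower there numbered 20, but 1 and 55 with a mean of at least 50 and at least 1, 9 with a pseudocount of 1, 37 with the ratio centred on the median of all genes, and 10 to 17 with a replicate left out. Members varying between libraries numbered 261, but 107 and 431 with a mean of at least 50 and at least 1, 544 with estimated counts, and 122 to 191 with a replicate left out. Silent transcribed members numbered 150, but 95 with estimated counts and 89 at 0 in both sets of tables. For the pseudocount, centring and replicate 3 the cause was not tested. Of the 64 named levels, 28 moved beyond their SD in the estimated-count tables. No paired analysis was possible because the series has 1 group, so no replicate number pairs samples across groups (the contrasts above are within libraries). Depth limits what a count of 0 can show to levels above 0.1365 to 0.1519 CPM.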
